A study of Mus musculus with 24 samples.

Results

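Neuregulin 1 (NRG1) is a growth factor that binds the receptors ErbB3 and ErbB4, which signal together with ErbB2. Lgr5med and Lgr5low crypt cells of mice treated with NRG1 were compared as 6 of the 24 RNA sequencing libraries of the series. They are the 3 Lgr5med and the 3 Lgr5low libraries of the same 3 treated mice, chosen by their labels, so that each mouse gave 1 library of each population. All animals were male Lgr5-EGFP reporter mice, C57BL/6 littermates of 11 to 15 weeks. The treated mice received 7.5 µg of NRG1 into the peritoneum every 12 h for 5 days, the other 3 mice received PBS, and intestine was taken on day 6. In both treatments mouse 3 was aged 11 weeks and its fellows 15 weeks, so age cannot be told apart from that animal. Crypts were dissociated, and viable cells without the endothelial marker CD31 and the leukocyte marker CD45 were sorted on EGFP and CD24. The labels call Lgr5med-CD24low cells immediate progenitors and Lgr5low-CD24low cells subsequent progenitors, while Lgr5high cells are the crypt base columnar stem cells and Lgr5neg cells are differentiated. Lgr5med and Lgr5low libraries of the 3 PBS mice gave the same step without the growth factor.

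Crypts of the small intestine renew the epithelium from Lgr5-expressing stem cells at their base, which depend on Wnt and R-spondin signals. Daughters that leave the base pass through a dividing progenitor zone. There, Notch signalling separates absorptive progenitors, the future enterocytes, from secretory ones, which become goblet, enteroendocrine, Paneth or tuft cells. Since EGFP stands in for Lgr5, the gates order cells along this path, and neither Lgr5 nor Cd24a is a finding here.

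The 6 libraries held 11176264 to 21993032 counts, of which 42.0% to 44.6% were mitochondrial ribosomal RNA, and the lowest totals were those of Lgr5low libraries 1 (11176264) and 3 (12549951). Lgr5 stood at 77.3, 42.4 and 45.2 CPM, which are counts scaled to library size, in the Lgr5med libraries of mice 1, 2 and 3, against 9.09, 21.4 and 8.999 CPM in their Lgr5low libraries. The populations did not overlap, with a log2 difference of 2.05 (SE 0.596), but the size differed between mice and the adjusted p of 0.190 missed the threshold. Lgr5low library 2 stood apart in its 29 stem cell markers, which summed to 2153 CPM there and to 1518 and 1525 CPM in Lgr5low libraries 1 and 3. Its 26 brush border genes had the lowest sum of the 3, at 2814 CPM beside 3260 and 4537 CPM, although there library 3 lay farther from the others. In PBS mice the Lgr5low sum of this list was also lowest in library 2, at 3723 CPM beside 5538 and 5341 CPM. Without mouse 2 of the NRG1 mice, which had the smallest step, the log2 difference of Lgr5 was 2.70 (adjusted p = 2.16e-17). Over the 11 settings run Lgr5 was called in 5, with adjusted p-values of up to 0.512. Epcam, an adhesion protein of epithelial cells, had 668, 718 and 692 CPM in Lgr5med cells and 762, 746 and 727 CPM in Lgr5low cells. Immune markers summed to 3.22 to 5.34 CPM in Lgr5med and 2.23 to 4.70 CPM in Lgr5low libraries, and Ptprc, which encodes CD45, did not exceed 0.516 CPM. Endothelial markers summed to 1.88 to 3.13 CPM in Lgr5med and 2.09 to 2.79 CPM in Lgr5low libraries.

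Between Lgr5med and Lgr5low cells of NRG1 mice, 2486 of 13331 genes tested differed (18.6%) at an adjusted p under 0.05 in edgeR's quasi-likelihood test with the mouse as a block. Of these, 934 genes were higher (7.01%) and 1552 lower (11.6%) in Lgr5med cells, and 138 and 472 of them differed by more than 2-fold. The direction was the same in all 3 mice for 2470 of the 2486. Groups did not overlap at 3581 of all genes (26.9%), and the median log2 difference of all genes was 0.03. Without the mouse block 667 genes were called, and without mouse 1 the count was 1057. In PBS mice 2370 of 13356 genes (17.7%) differed, 1019 higher (7.63%) and 1351 lower (10.1%). Over 13 genes of epithelial identity, Epcam among them, 9 were lower in Lgr5med cells, none was higher and all 13 differences were negative (median -0.42). Their sum was 3564 to 3713 CPM in Lgr5med and 4622 to 5244 CPM in Lgr5low libraries, and its part in the other differences was not tested. Of the 13, 4 were called without the mouse block and 5 without mouse 1. The plot of all genes shows that the larger differences lay on the lower side.

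**Figure D1:**
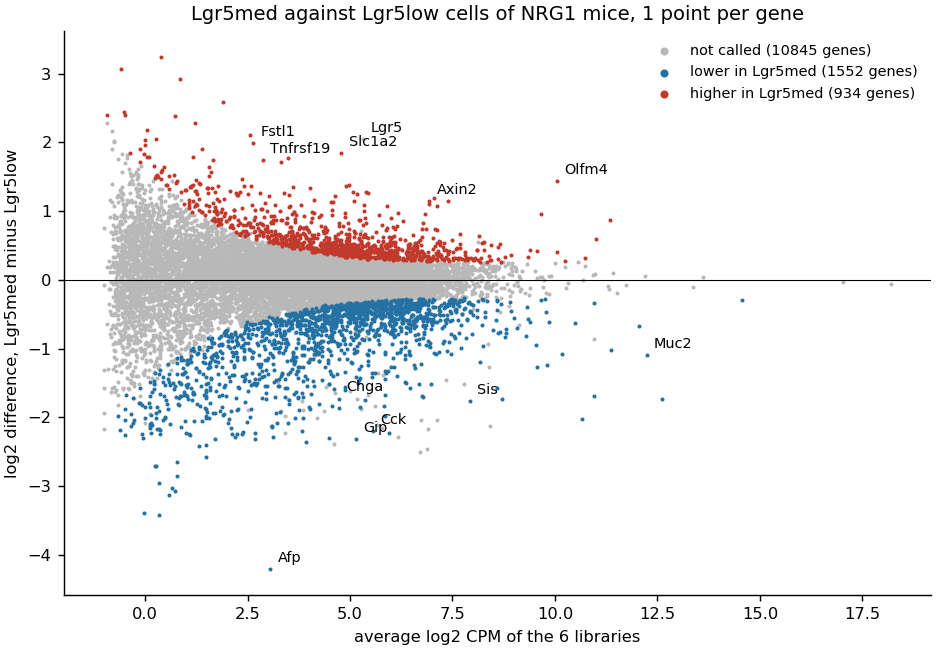
Log2 difference of Lgr5med minus Lgr5low cells in NRG1 mice (vertical axis) against the average log2 CPM of the 6 libraries (horizontal axis), 1 point per gene. The 934 genes higher in Lgr5med cells are red, the 1552 lower ones blue and genes not called grey.

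Stem cell markers were higher in Lgr5med cells for 26 of the 29 tested and lower for none, with a median log2 difference of 1.00. In bulk libraries fewer cells of a type and less RNA per cell cannot be told apart. Olfm4, which encodes a secreted glycoprotein that marks crypt base stem cells, had 1390.4, 1504 and 1139 CPM in the Lgr5med libraries, against 438, 689 and 394 CPM in the Lgr5low libraries. Every Lgr5med library lay above every Lgr5low library, and the log2 difference was 1.44 (SE 0.102, adjusted p = 1.97e-09; chr14:79984081-80023139 on GRCm38). Ascl2, a transcription factor that sets the stem cell programme, stood at 24.9, 32.4 and 31.0 CPM in Lgr5med and 8.53, 18.6 and 11.6 CPM in Lgr5low cells, a log2 difference of 1.22 (SE 0.144, adjusted p = 2.63e-06). Its step was smallest in mouse 2, at 0.80 against 1.54 in mouse 1 and 1.41 in mouse 3. Tnfrsf19 (Troy), a receptor of the tumour necrosis factor family that marks stem cells, was 3.34-fold higher, at 13.5, 9.57 and 5.02 CPM in Lgr5med and 2.79, 3.52 and 1.74 CPM in Lgr5low cells (adjusted p = 5.74e-06). Msi1, an RNA-binding protein of stem cells, had 44.2, 36.3 and 36.2 CPM in Lgr5med and 12.5, 18.1 and 14.01 CPM in Lgr5low cells. Slc12a2, a sodium, potassium and chloride cotransporter, had 892, 989 and 871 CPM in Lgr5med and 380.3, 595 and 457 CPM in Lgr5low cells. Both were higher without overlap, by log2 differences of 1.38 (adjusted p = 5.5e-07) and 0.96 (adjusted p = 3e-07). The 3 members not called were Lgr5, Bmi1 and Noxo1. The list had between 22 and 26 higher members under every alternative run, and in PBS mice 25 of 28 were higher.

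The 12 largest rises were ranked over genes that were called, moved alike in all mice and averaged 2 or more on the log2 CPM scale. The first was Fstl1, a secreted glycoprotein related to follistatin (chr16:37776873-37836514). It had 8.89, 9.35 and 5.81 CPM in Lgr5med cells, against 1.67, 2.96 and 1.38 CPM in Lgr5low cells, and was 3.98-fold higher (SE 0.235 around a log2 difference of 1.99, adjusted p = 1.85e-06). Next came Slc1a2, a glutamate transporter, with 41.3, 30.0 and 39.3 CPM in Lgr5med and 6.78, 11.5 and 12.2 CPM in Lgr5low cells (log2 difference 1.84, adjusted p = 2.27e-05). The order Lgr5med above Lgr5low held in each mouse for both genes. Scn2b, a sodium channel subunit, differed by 1.78, Cyp2e1, a cytochrome P450, by 1.71, and Slc14a1, a urea transporter, by 1.37. Gas7, Arl4c, Fam49a and Gkn3 completed the 12 with Olfm4, Tnfrsf19 and Msi1, at log2 differences of 1.33 to 1.46. All 12 were also higher in PBS mice, with Fstl1 at 2.81 and Slc1a2 at 1.99.

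Wnt feedback and target genes were higher for 12 of 18 and lower for none, with a median of 0.66. Axin2, a scaffold of the complex that degrades beta-catenin and itself a Wnt target, had 173, 149 and 116 CPM in Lgr5med libraries, against 58.7, 82.2 and 56.4 CPM in Lgr5low libraries. The log2 difference was 1.14 (SE 0.114, adjusted p = 1.08e-06), with no overlap. Cd44, a hyaluronan receptor, was 2.16-fold higher at 141, 140.1 and 149.6 CPM in Lgr5med and 52.5, 83.0 and 66.2 CPM in Lgr5low cells. Soat1, an enzyme that esterifies cholesterol and a marker on the stem cell list, differed by 1.19 (adjusted p = 1.9e-08). Myc, a transcription factor that drives growth, had 109, 127 and 87.4 CPM in Lgr5med cells and 65.1, 90.4 and 61.7 CPM in Lgr5low cells. Its log2 difference of 0.58 (SE 0.0961, adjusted p = 0.000117) was smaller than that of Axin2, and Lgr5med library 3 lay below Lgr5low library 2. Sox9, a transcription factor of the crypt base, differed by 0.75 and Lrig1, a membrane protein that restrains ErbB receptors, by 0.74. Ccnd1, which encodes cyclin D1, did not pass, at 51.0, 69.9 and 64.4 CPM in Lgr5med and 46.9, 69.3 and 57.3 CPM in Lgr5low cells (adjusted p = 0.565). The Wnt list had 8 higher members without the mouse block and 8 without mouse 1.

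**Figure D2:**
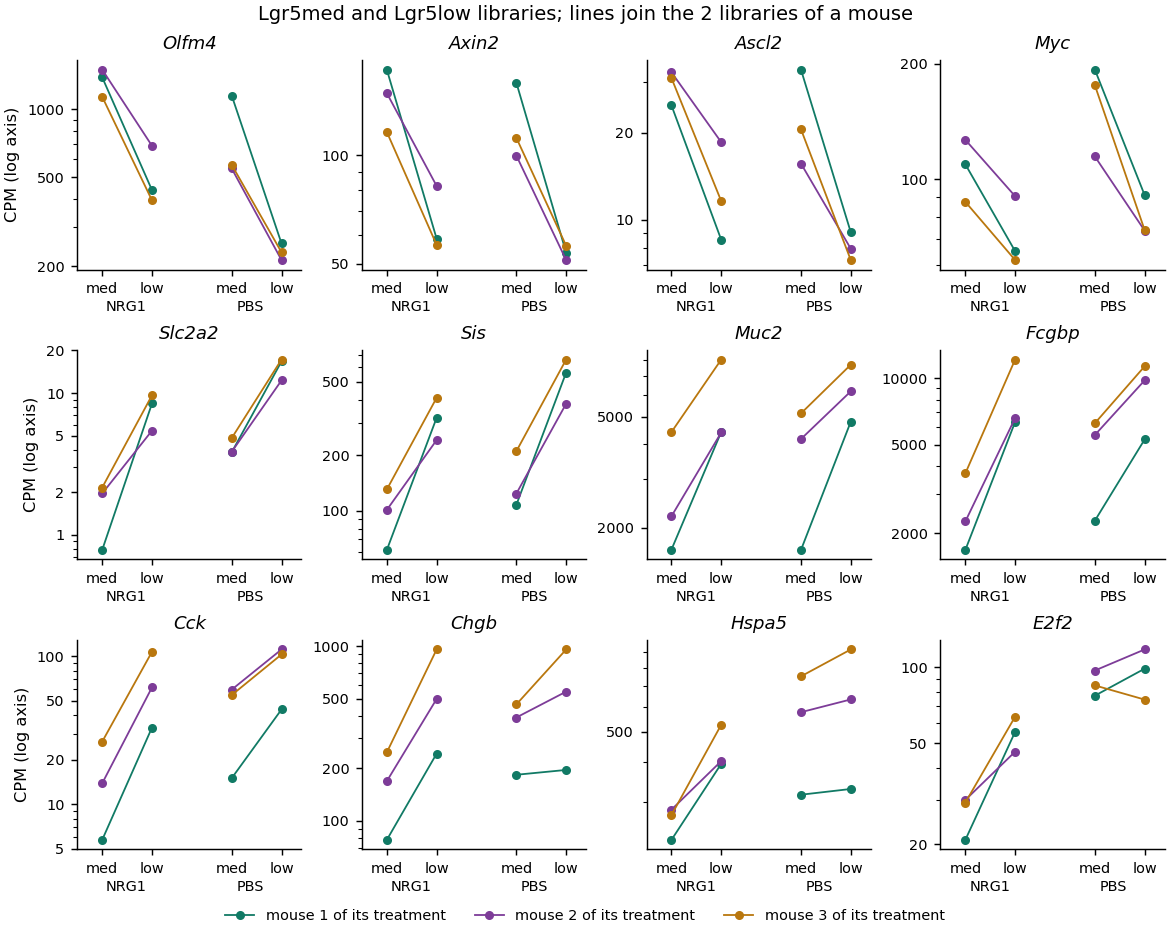
CPM on a log axis of 12 genes in Lgr5med (med) and Lgr5low (low) libraries of NRG1 mice (left side of each panel) and PBS mice (right side); each line joins the 2 libraries of 1 mouse. Stem cell and Wnt genes slope down to Lgr5low, and enterocyte, goblet and hormone genes slope up. The lines of Chgb, Hspa5 and E2f2 are steeper in NRG1 than in PBS mice, a difference called for none of them except in some of the alternative settings.

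Eph receptors and ephrins, which keep dividing and differentiated cells in separate zones by repulsion, were split, with 4 of 11 tested higher and 2 lower. Ephb2 differed by 0.41 (adjusted p = 0.00485) and Ephb3 by 0.79 (adjusted p = 0.000230), both receptors of the crypt base. Efnb2, a ligand of these receptors, had 15.4, 18.1 and 26.0 CPM in Lgr5med cells, against 47.0, 38.3 and 56.0 CPM in Lgr5low cells. It was 2.39-fold lower without overlap (log2 difference -1.26, SE 0.124, adjusted p = 2.09e-07), and Efnb1, a second ligand, differed by -0.51. The other 2 higher members were Efna4, an A-type ephrin (0.73), and Epha4, an A-type receptor (0.90). The counts were 1 higher and 1 lower without the mouse block, and 2 higher and 1 lower without mouse 1.

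Notch pathway genes were split as well, with 4 of 16 higher and 4 lower. Notch1, the receptor, had 51.3, 46.4 and 40.8 CPM in Lgr5med and 25.8, 30.5 and 21.9 CPM in Lgr5low cells, and Hes1, the repressor it induces, 24.3, 24.9 and 26.1 CPM in Lgr5med and 16.5, 17.1 and 18.1 CPM in Lgr5low cells. Both were higher in all mice, by 0.82 (adjusted p = 1.48e-05) and 0.54 (adjusted p = 0.00290). Dtx4, an E3 ligase of the pathway, differed by 0.66. Notch2, a second receptor, differed by 0.45. The lower members were Dll1, a Notch ligand, at -0.36 (adjusted p = 0.0253), Dll4, another ligand, at -0.53 (adjusted p = 0.0174), Numb, an inhibitor of Notch, at -0.39, and Atoh1, the transcription factor of secretory cells, at -0.49 (adjusted p = 0.00205). Atoh1 had 20.7, 31.8 and 54.9 CPM in Lgr5med and 31.5, 44.7 and 71.5 CPM in Lgr5low libraries, with the highest values of both populations in mouse 3. None of the 4 was called lower in the fit without mouse 1 or in the fit without the block, which called 2 higher members each, and 1 was called lower without mouse 3. In PBS mice 5 of 15 were higher and none lower, with Dll1 at 0.07 and Dll4 at 0.05; the difference between treatments was not called for Dll1 (adjusted p = 0.660) or Dll4 (adjusted p = 0.660).

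Genes of G2 and mitosis were modestly higher in Lgr5med cells. Of 30 tested, 17 were higher and none lower, and the median was 0.32, while all 30 had a positive difference. Top2a, the topoisomerase that untangles chromosomes, had 510.4, 455 and 451 CPM in Lgr5med libraries, against 398, 395 and 313 CPM in Lgr5low libraries, a log2 difference of 0.36 (SE 0.0930, adjusted p = 0.00768). Kif11, a spindle motor, differed by 0.33 and Cenpf, a kinetochore protein, by 0.37. Mki67, a marker of cycling cells, stood at 1115, 895 and 900.3 CPM in Lgr5med and 897, 792 and 753 CPM in Lgr5low cells and did not pass (log2 difference 0.25, adjusted p = 0.0577). These differences were small, and the count was 3 without the mouse block, 3 without mouse 1, 7 without mouse 3, 3 with all 24 libraries and 9 by DESeq2. In PBS mice 6 of the 30 were higher.

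Replication genes were higher for 6 of 30 and lower for 1, with a median of 0.26, against 19 higher and none lower in PBS mice. The difference between treatments was called for none of the 30. In NRG1 mice the count of higher genes was 1 without the mouse block, 3 without mouse 1 and 3 with all 24 libraries. Pola1 and Pole, catalytic subunits of replicative DNA polymerases, differed by 0.60 (adjusted p = 0.00128) and 0.50 (adjusted p = 0.00223). Mcm6, part of the helicase that opens DNA for replication, had 67.2, 59.4 and 48.9 CPM in Lgr5med cells and 51.3, 43.3 and 38.7 CPM in Lgr5low cells. The member that was lower was E2f2, a transcription factor of the cell cycle, with 20.8, 29.9 and 29.2 CPM in Lgr5med and 55.6, 46.4 and 63.8 CPM in Lgr5low cells. It was 2.08-fold lower (log2 difference -1.05, SE 0.133, adjusted p = 1.69e-05), whereas in PBS mice it stood at 77.2, 97.0 and 84.7 CPM in Lgr5med and 98.6, 117.4 and 74.5 CPM in Lgr5low cells (-0.13). E2f1, a related factor, differed by 0.04 in NRG1 mice and 0.92 in PBS mice, and Ung, the uracil glycosylase of replicating cells, by 0.08 and 0.90. Neither was called in NRG1 mice, both were in PBS mice, and none of the 3 was called for a difference between treatments (adjusted p = 0.118 for E2f2, 0.616 for E2f1 and 0.121 for Ung). Over the 11 settings run that difference was called in 3 for E2f2.

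Ribosome biogenesis genes were higher for 12 of 26 (median 0.31) and cytosolic ribosomal proteins for 5 of 24 (median 0.21), none lower in either list. Ncl, the nucleolar protein nucleolin, had 734, 848 and 679 CPM in Lgr5med and 547, 652 and 496 CPM in Lgr5low libraries, without overlap (log2 difference 0.41, adjusted p = 0.00169). Npm1, nucleophosmin, differed by 0.41 and Nop58, a core protein of small nucleolar particles, by 0.42. The biogenesis count was 1 without the block, 2 without mouse 1 and 7 without mouse 2, and that of ribosomal proteins 0, 1 and 3. With all 24 libraries the counts were 5 and 0.

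Enterocyte genes were lower in Lgr5med cells in each of 4 functional lists, as the plot of gene lists shows. Brush border genes were lower for 15 of 26 (median -1.38), genes of lipid absorption for 14 of 24 (median -1.32), transporters for 23 of 26 (median -1.27) and xenobiotic enzymes for 21 of 29 (median -1.21), and none was higher. Sis, the sucrase-isomaltase of the brush border, had 61.3, 101 and 130.4 CPM in Lgr5med cells, against 319.5, 242 and 410.2 CPM in Lgr5low cells. It was 3.39-fold lower (log2 difference -1.76, SE 0.269, adjusted p = 0.0274). Slc2a2, the glucose transporter GLUT2, had 0.783, 1.96 and 2.16 CPM in Lgr5med libraries and 8.45, 5.44 and 9.65 CPM in Lgr5low libraries, a log2 difference of -2.25 (adjusted p = 4.26e-05). Slc9a3, a sodium-hydrogen exchanger of the brush border, was 4.75-fold lower at 0.737, 1.96 and 1.78 CPM in Lgr5med and 7.65, 5.52 and 8.20 CPM in Lgr5low cells. For all 3 genes the groups did not overlap and mouse 1 had the largest step. Apob, the structural protein of chylomicrons, differed by -0.95 (adjusted p = 3.74e-05), Mttp, which loads lipid onto it, by -1.52 (adjusted p = 0.0239), and Npc1l1, the cholesterol importer, by -1.52 (adjusted p = 0.000108).

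**Figure D3:**
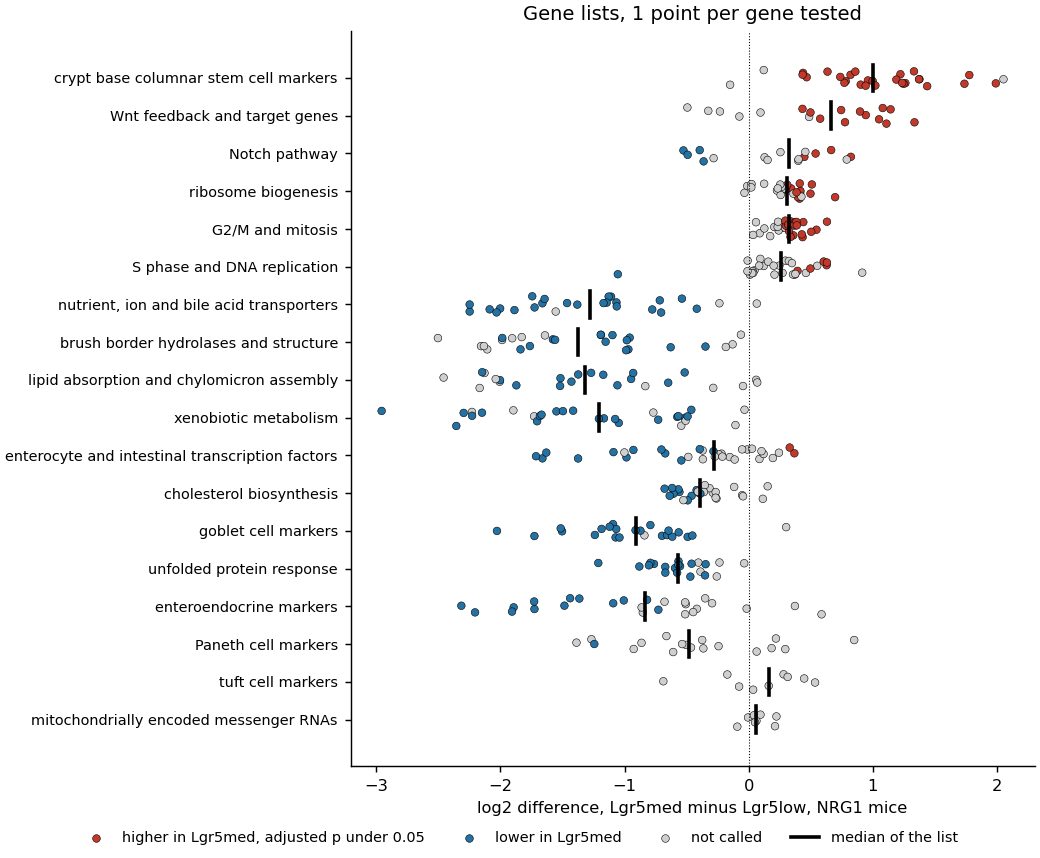
Log2 difference of Lgr5med minus Lgr5low cells in NRG1 mice (horizontal axis) for the tested genes of 18 lists, 1 point per gene, coloured by call, with a bar at each list's median. Stem cell and Wnt lists lie to the right, enterocyte, goblet, enteroendocrine and unfolded protein response lists to the left.

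Several of the best known enterocyte genes showed steps of this size without passing the paired test. Alpi, intestinal alkaline phosphatase, had 18.7, 30.4 and 30.1 CPM in Lgr5med cells, against 184, 89.8 and 191 CPM in Lgr5low cells, a log2 difference of -2.50 (SE 0.516, adjusted p = 0.118). Its steps were -3.29 in mouse 1, -1.56 in mouse 2 and -2.67 in mouse 3. Fabp1, a fatty acid binding protein, had 40.8, 52.0 and 43.1 CPM in Lgr5med and 286, 114 and 193 CPM in Lgr5low cells (log2 difference -2.04, adjusted p = 0.149). Apoa1 and Apoa4, apolipoproteins of chylomicrons, differed by -2.13 (adjusted p = 0.182) and -2.46 (adjusted p = 0.183). In each of these 4 the populations did not overlap, and Lgr5low library 2 was the lowest of its group. Without mouse 2 all 4 passed, with adjusted p-values of 2.06e-21 for Alpi, 8.78e-19 for Fabp1 and 3.27e-22 for both Apoa1 and Apoa4. That setting leaves out the smallest step of each gene. Over the 11 settings run, Alpi and Fabp1 were called in 5 and Apoa1 and Apoa4 in 2, with adjusted p-values of up to 0.405 for Alpi, 0.454 for Fabp1, 0.494 for Apoa1 and 0.499 for Apoa4. The brush border count was 23 without mouse 2 and 5 without mouse 3, and that of lipid genes 20 without mouse 2 and 11 without mouse 3. Without the mouse block the counts of lower genes were 12 for brush border, 14 for lipid absorption, 16 for transporters and 15 for xenobiotic enzymes. All 4 genes were called lower in PBS mice, with log2 differences of -2.04, -1.90, -1.999 and -2.57.

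The 12 largest falls were taken by the same rule, and the first was that of Afp, alpha-fetoprotein (chr5:90490737-90508907), with 0.276, 0.603 and 1.45 CPM in Lgr5med cells, against 9.81, 7.79 and 26.1 CPM in Lgr5low cells. That is 18.5-fold lower (log2 difference -4.21, SE 0.256, adjusted p = 5.8e-11). The value of Lgr5med library 1 is near the floor, as 3 counts there correspond to 0.138 CPM, so the size of the fold is uncertain. Ces1f, a carboxylesterase, was 5.12-fold lower at 4.97, 4.94 and 2.72 CPM in Lgr5med and 37.1, 16.4 and 15.0 CPM in Lgr5low cells. Gsta1 and Gsta4, glutathione transferases, differed by -2.30 and -2.23, and Ugt2b5, a glucuronosyltransferase, by -2.25. H2-Q1, a class I histocompatibility gene, differed by -2.31 (adjusted p = 0.00580). The remaining large falls were hormone and sensory genes, Gip (-2.31), Cck (-2.20) and Trpa1 (-2.29), with the adhesion receptor deposited as Gpr112 (-2.29) and the transporters above. All 12 were called lower in PBS mice too. Gsta, Ces1, Ugt2b and class I histocompatibility genes have near-identical relatives, so reads may have been split between them.

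Transcription factors of enterocytes and of the intestine in general, taken as 1 list, were lower for 12 of 32 and higher for 2. Both without the mouse block and without mouse 1, 6 were lower and none higher. Hnf4g, a nuclear receptor of absorptive cells, had 56.3, 53.2 and 72.2 CPM in Lgr5med and 152, 85.2 and 115 CPM in Lgr5low cells (log2 difference -0.93, adjusted p = 0.000651). Its close relative Hnf4a was at 494, 624 and 482 CPM in Lgr5med and 536, 658 and 659 CPM in Lgr5low cells and did not pass (log2 difference -0.22, adjusted p = 0.119). Klf4, a factor of post-mitotic epithelium, was 2.13-fold lower (log2 difference -1.09, adjusted p = 9.83e-08), and Isx, an intestinal homeobox factor, differed by -0.54. Cdx2, the homeobox factor of intestinal identity, did not pass (0.12), and Vdr, the vitamin D receptor, was among the higher members (0.33, adjusted p = 0.0113). The gene of the cell cycle inhibitor p21, Cdkn1a, had 25.0, 31.4 and 53.9 CPM in Lgr5med cells, against 74.2, 77.3 and 162 CPM in Lgr5low cells. The 3 Lgr5med values lay below all 3 Lgr5low values, with a log2 difference of -1.49 (SE 0.103, adjusted p = 6.46e-10).

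Goblet cell markers were lower in Lgr5med cells for 21 of 23 and higher for none, with a median of -0.91. Muc2, the mucin of intestinal mucus (chr7:141690340-141754693), had 1669, 2198 and 4409.7 CPM in Lgr5med libraries, against 4416, 4397 and 8032 CPM in Lgr5low libraries. Mouse 3 was highest in both populations and its Lgr5med library overlapped the Lgr5low range. Each mouse was lower in Lgr5med cells, by 0.87 to 1.40 on the log2 scale, and the log2 difference was -1.09 (SE 0.105, adjusted p = 2.74e-07). Fcgbp, a mucus protein, was 3.31-fold lower at 1681, 2259 and 3720.0 CPM in Lgr5med and 6346, 6607 and 12121 CPM in Lgr5low cells (adjusted p = 2.36e-11). Zg16, a lectin of goblet granules, differed by -2.03 (adjusted p = 1.43e-06) and Agr2, a disulfide isomerase that goblet cells need for mucin, by -1.07 (adjusted p = 2.09e-07). Summed over the list, goblet markers reached 5792, 7706 and 12846 CPM in Lgr5med and 17370.3, 17143 and 30135 CPM in Lgr5low libraries. The count was 7 without the mouse block, and in PBS mice 14 of 24 were lower.

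Enteroendocrine markers were lower for 13 of 26, higher for none, with a median of -0.84. Chga and Chgb, granins of hormone granules, were both 3.31-fold lower: Chga had 5.30, 7.99 and 19.5 CPM in Lgr5med and 20.3, 24.6 and 61.3 CPM in Lgr5low cells (adjusted p = 2.38e-09), Chgb 77.6, 169 and 246 CPM in Lgr5med and 242, 499 and 960.3 CPM in Lgr5low cells (adjusted p = 2.36e-11). Gip, the glucose-dependent insulinotropic peptide, had 4.24, 10.0 and 15.7 CPM in Lgr5med and 14.9, 78.2 and 63.1 CPM in Lgr5low libraries (log2 difference -2.31, adjusted p = 1.68e-05). Gcg, the proglucagon gene, differed by -0.82 (adjusted p = 7.65e-05). Mouse 1 was lowest in both populations for each of these genes, and groups overlapped for Chgb, Gip and Gcg although Lgr5med was lower in each mouse. The list summed to 144, 289 and 469 CPM in Lgr5med libraries, against 401, 855 and 1456 CPM in Lgr5low libraries. In PBS mice it was also lowest in mouse 1, at 313, 717 and 751 CPM in Lgr5med and 384, 1083 and 1416 CPM in Lgr5low libraries. Why mice of the same number were alike in both treatments was not tested. In NRG1 mice the count without the mouse block was 2.

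Of 18 genes tested on the Paneth cell list 1 was lower in Lgr5med cells, the lectin Reg4 (-1.24, adjusted p = 1.16e-07), and 6 were lower without mouse 1. Whether the Reg4 RNA came from Paneth cells was not tested. The median of the list was -0.48, and 0.03 without mouse 3. The list summed to 1244, 3586 and 1960 CPM in Lgr5med libraries, against 1075, 6050 and 6263 CPM in Lgr5low libraries. Lyz1, the lysozyme of Paneth granules, had 511, 1903 and 874 CPM in Lgr5med and 455, 3472 and 3202 CPM in Lgr5low cells and did not pass (log2 difference -0.86, adjusted p = 0.474). Its log2 difference was 0.17 in mouse 1, -0.87 in mouse 2 and -1.87 in mouse 3. In Lgr5low libraries of PBS mice the Paneth list summed to 1221, 5549 and 5241 CPM, lowest in mouse 1 as in NRG1 mice. None of 9 tuft markers passed in any of the 11 settings run, and Dclk1, a kinase of tuft cells, stayed under 3 CPM in all 6 libraries. Vim, the one of 2 mesenchymal markers tested that was lower, had 1.98, 2.52 and 5.63 CPM in Lgr5med and 3.83, 8.61 and 13.7 CPM in Lgr5low cells. The mesenchymal list summed to 3.04 to 7.41 CPM in Lgr5med and 4.86 to 14.9 CPM in Lgr5low libraries, and its part in other differences was not tested.

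**Figure D4:**
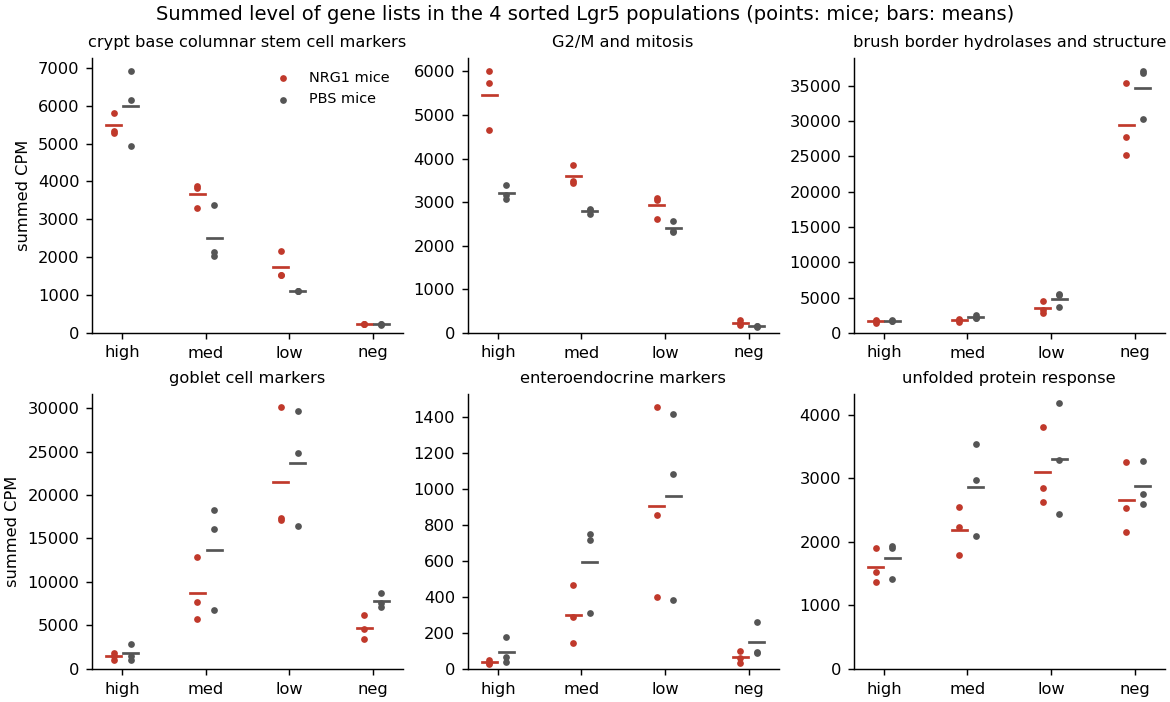
Summed CPM of 6 gene lists in Lgr5high, Lgr5med, Lgr5low and Lgr5neg cells of NRG1 mice (red) and PBS mice (grey); points are mice and bars means of 3. Within each treatment the means of the goblet and enteroendocrine lists are highest in Lgr5low cells, those of brush border genes in Lgr5neg cells and those of stem cell markers in Lgr5high cells.

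Genes of the unfolded protein response, which raises the folding capacity of the endoplasmic reticulum, were lower in Lgr5med cells for 16 of 21 and higher for none. The median was -0.57, and all 21 had a negative difference. Hspa5, the chaperone BiP, which keeps the stress sensors inactive, had 226, 283 and 271 CPM in Lgr5med cells, against 396, 404 and 527 CPM in Lgr5low cells, without overlap (log2 difference -0.76, SE 0.0987, adjusted p = 6.42e-06). Hsp90b1, a chaperone of the same compartment, differed by -0.47 (adjusted p = 0.000830), Calr, the lectin chaperone calreticulin, by -0.46 (adjusted p = 0.000999), and Creld2, a secreted stress protein, by -0.80 (adjusted p = 0.000349). Canx and Creld2 were picked after their values were seen, as were Epha4, Notch2, Dll4, E2f1, Ung, Bmi1, Noxo1, Cd74 and Slc3a1. Canx, the membrane-bound relative of calreticulin, missed the threshold with 299, 323 and 359 CPM in Lgr5med and 384, 368 and 417 CPM in Lgr5low cells (log2 difference -0.26, adjusted p = 0.0513). In PBS mice 9 of 21 were lower, and Hspa5 stood at 315, 578 and 752 CPM in Lgr5med and 329, 635 and 916 CPM in Lgr5low cells. The difference between treatments was called for none of the 21. Over the 11 settings run it was called in 2 for Hspa5. The list summed to 1788, 2233 and 2558 CPM in Lgr5med libraries, against 2630, 2852 and 3813 CPM in Lgr5low libraries. Goblet markers moved the same way, with the sums given above, and their part in the step of this list was not tested. The count was 3 without the mouse block and 12 without mouse 1.

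Promoters of these chaperone genes are known for the endoplasmic reticulum stress response element, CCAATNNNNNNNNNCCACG. It was searched on both strands in the 250 bases before the start of RefSeq genes (GRCm38.p6). The element was in 7 of the 18 list genes with a promoter in the table, 6 of them lower in Lgr5med cells, and 7 of the 11 without it were lower as well. Over all promoters of this length 0.113% held it. Among genes with a promoter, it was found in 7 of 1167 lower genes (0.600%), 0 of 694 higher genes and 7 of 7581 genes not called (0.0923%). Of these 7 lower genes, 6 are the list genes just counted, so the share among lower genes largely restates that list. The element contains the shorter box CCAAT, which 33.8% of promoters hold. Shown are 4 promoters of genes that were lower and that of Canx, which was not called, with the element in capitals:
Hspa5: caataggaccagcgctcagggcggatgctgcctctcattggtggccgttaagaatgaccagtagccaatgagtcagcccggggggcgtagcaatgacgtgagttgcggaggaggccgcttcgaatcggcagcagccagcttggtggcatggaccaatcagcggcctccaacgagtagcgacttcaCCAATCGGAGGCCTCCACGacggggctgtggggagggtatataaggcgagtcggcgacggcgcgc
Hsp90b1: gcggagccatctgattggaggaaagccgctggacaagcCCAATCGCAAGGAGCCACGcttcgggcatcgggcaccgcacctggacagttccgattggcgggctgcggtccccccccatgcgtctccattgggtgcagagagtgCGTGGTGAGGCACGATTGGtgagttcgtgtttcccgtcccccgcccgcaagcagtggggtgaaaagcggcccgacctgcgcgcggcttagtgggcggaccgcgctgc
Calr: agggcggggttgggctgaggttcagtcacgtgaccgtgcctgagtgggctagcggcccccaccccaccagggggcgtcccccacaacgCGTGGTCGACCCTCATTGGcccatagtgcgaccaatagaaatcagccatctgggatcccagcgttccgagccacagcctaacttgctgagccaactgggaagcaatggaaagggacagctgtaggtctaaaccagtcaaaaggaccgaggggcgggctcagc
Creld2: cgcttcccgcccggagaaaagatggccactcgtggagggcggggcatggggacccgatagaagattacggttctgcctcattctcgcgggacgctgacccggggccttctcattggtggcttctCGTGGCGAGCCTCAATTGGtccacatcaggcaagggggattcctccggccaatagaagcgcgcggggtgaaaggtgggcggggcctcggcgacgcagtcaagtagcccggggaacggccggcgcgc
Canx: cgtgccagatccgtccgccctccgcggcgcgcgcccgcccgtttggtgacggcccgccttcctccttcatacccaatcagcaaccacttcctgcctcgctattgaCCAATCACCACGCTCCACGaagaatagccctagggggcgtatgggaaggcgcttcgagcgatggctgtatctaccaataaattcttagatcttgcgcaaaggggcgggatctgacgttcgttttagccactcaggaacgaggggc
The stretches are chr2:34771840-34772089 for Hspa5, chr10:86705445-86705694 for Hsp90b1, chr8:84846932-84847181 for Calr, chr15:88819396-88819645 for Creld2 and chr11:50325674-50325923 for Canx. Hspa5 and Creld2 lie on the plus strand and the others on the minus strand, and each is written on the strand of its gene. Hsp90b1 held the element 2 times, on both strands, and the other 4 held it 1 time. Its distance to the gene start differed, with the element beginning 65 bases before the start in Hspa5 and 162 bases before it in Calr.

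A motif of the HNF4 receptors, CAAAGTCCA, was in 15 of 1167 lower genes (1.29%), 2 of 694 higher genes (0.288%) and 36 of 7581 genes not called (0.475%), against 0.384% of all promoters. The 2 lower genes shown here hold it, with the motif in capitals:
Muc13: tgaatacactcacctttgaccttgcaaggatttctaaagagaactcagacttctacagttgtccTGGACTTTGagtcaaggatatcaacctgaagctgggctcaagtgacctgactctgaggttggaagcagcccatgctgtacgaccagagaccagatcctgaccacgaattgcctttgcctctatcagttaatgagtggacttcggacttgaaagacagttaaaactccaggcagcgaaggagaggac
Slc3a1: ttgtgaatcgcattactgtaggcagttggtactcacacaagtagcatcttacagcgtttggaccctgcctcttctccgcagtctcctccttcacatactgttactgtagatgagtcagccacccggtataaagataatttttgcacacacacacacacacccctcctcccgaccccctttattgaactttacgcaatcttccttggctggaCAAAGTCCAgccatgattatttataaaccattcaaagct
They lie at chr16:33794239-33794488 for Muc13 and chr17:85028097-85028346 for Slc3a1, both on the plus strand, and for Muc13 the window is that of the second of 2 starts in the table. Muc13, a membrane mucin, had 561, 741 and 612 CPM in Lgr5med and 862, 968 and 1091 CPM in Lgr5low cells (log2 difference -0.62, adjusted p = 7.35e-05). Slc3a1, the heavy chain of an amino acid transporter, had 6.96, 6.75 and 7.55 CPM in Lgr5med and 15.4, 13.7 and 17.6 CPM in Lgr5low cells (log2 difference -1.13, adjusted p = 1.82e-05). The TCF/LEF motif ATCAAAG of Wnt targets was about as common among higher genes (2.74%) as among lower genes (2.49%) and genes not called (2.82%). These 3 are among 20 motifs looked at once the calls were known, without a test. Of the other 17, TTCGCGC was in 4.32% of higher, 2.06% of lower and 2.89% of genes not called, and CCACACCC in 4.03%, 6.34% and 4.09%. A match is a string of letters and was not tied to binding in these cells.

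Cholesterol synthesis genes were lower for 11 of 25 (median -0.39), genes of glycolysis and hypoxia for 9 of 23 (median -0.38) and genes of antigen presentation and interferon response for 11 of 23. The 1 higher gene was Cd74, the invariant chain of class II molecules (1.01), which was not called without the mouse block, without mouse 1 or with all 24 libraries. Without the mouse block these counts of lower genes were 3 for cholesterol synthesis, 5 for glycolysis and hypoxia and 3 for antigen presentation. Cholesterol synthesis had 4 without mouse 1 and 7 without mouse 2, and antigen presentation 5 without mouse 1 and 6 without mouse 3. Sqle, squalene epoxidase, had 19.8, 35.2 and 32.4 CPM in Lgr5med and 35.2, 47.6 and 43.9 CPM in Lgr5low libraries (log2 difference -0.57, adjusted p = 0.00112). Ldha, lactate dehydrogenase A, had 269, 311 and 244 CPM in Lgr5med and 495, 475 and 486 CPM in Lgr5low cells, a log2 difference of -0.83 (SE 0.0968, adjusted p = 1.53e-06) without overlap. Of 8 mitochondrially encoded messenger RNAs tested none passed in any of the 11 settings run (median 0.06), and in edgeR 0 had an unadjusted p under 0.05. In PBS mice 7 of 8 were lower (median -0.44), and the difference between treatments was called for none of the 8. Immediate-early genes, which dissociation can induce, were lower for 8 of 20. Fos had 17.8, 4.67 and 10.7 CPM in Lgr5med and 28.8, 6.96 and 20.5 CPM in Lgr5low cells. Without the mouse block edgeR called 0 members. DESeq2 with the block called 6, and edgeR called 4 without mouse 1 and 1 with all 24 libraries. Antimicrobial genes were lower for 6 of 12, among them Reg3g, a lectin that binds bacteria, at -1.07 (adjusted p = 8e-05) and Lypd8, which keeps flagellated bacteria off the epithelium, at -1.02 (adjusted p = 1.29e-07).

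Of the receptors that bind or relay NRG1, Erbb2 was the one that passed the test, and its call was lost in 5 of the 11 settings run. Erbb3 had 203, 211 and 199 CPM in Lgr5med cells, against 229.8, 223 and 235 CPM in Lgr5low cells, and did not pass (log2 difference -0.17, SE 0.0916, adjusted p = 0.227). Erbb2, its signalling partner, had 67.2, 71.6 and 60.4 CPM in Lgr5med and 84.6, 74.3 and 92.6 CPM in Lgr5low cells and was slightly lower (log2 difference -0.33, adjusted p = 0.0333). Egfr, the receptor for epidermal growth factor, had 76.8, 61.2 and 64.6 CPM in Lgr5med and 63.9, 55.0 and 52.5 CPM in Lgr5low libraries and did not pass (adjusted p = 0.103). Erbb4 had 1 count in the 6 libraries and Nrg1 had 0, where a count of 3 per library corresponds to 0.113 to 0.239 CPM. Of 12 genes of this family tested, Lrig1 was higher and Erbb2 lower. Of 16 ERK feedback and target genes 3 were higher, the feedback inhibitor Il17rd (1.07), the transcription factor Etv5 (0.66) and Phlda1 (0.43), and 2 were lower, Dusp6 and the immediate-early factor Egr1 (-0.38). Over all genes tested 7.01% were higher and 11.6% lower, and counts as small as these are not read as a result about either family. Without the mouse block edgeR called 0 of the 16. With the mouse block kept, DESeq2 called 1 in each direction. Without mouse 1 there were 2 higher and none lower, and without mouse 2 there were 1 higher and 2 lower. Dusp6, a phosphatase that ERK induces, had 1.24, 2.64 and 3.24 CPM in Lgr5med and 2.15, 3.22 and 8.06 CPM in Lgr5low cells and was lower (log2 difference -0.81, adjusted p = 0.0398).

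The same step in PBS mice was measured on separate libraries. Of the genes higher in Lgr5med cells of NRG1 mice, 453 of 934 were also called higher in PBS mice, which is 48.5% of the NRG1 list and 44.5% of the PBS list. Of the lower genes 951 of 1552 were shared, 61.3% and 70.4% of the lists, and 1 gene, the small nuclear RNA Rn7sk, was called in opposite directions (0.34 in NRG1 mice). Over 12921 genes measured in both, Pearson's r of the log2 differences was 0.71 and Spearman's rho 0.64, given as a description over genes, which are not independent. The test of the difference between the steps, an interaction over 12 libraries, called 1 of 14210 genes (0.00704%), with 954 at an unadjusted p under 0.05.

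**Figure D5:**
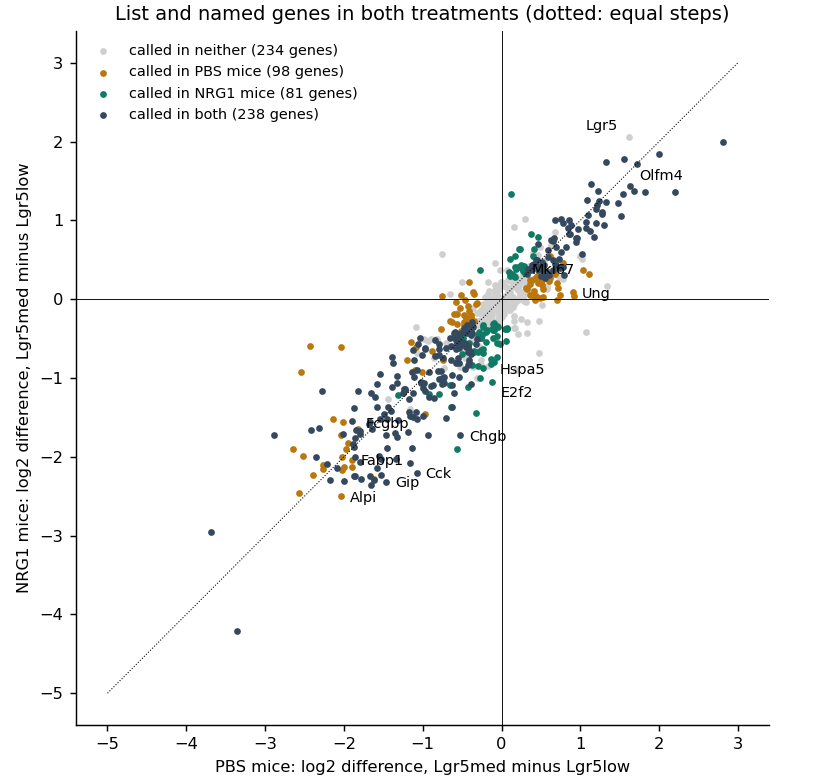
Log2 difference of Lgr5med minus Lgr5low cells in NRG1 mice (vertical axis) against PBS mice (horizontal axis) for 651 list and named genes, coloured by the comparison that called them; the dotted line marks equal steps. Cck, Chgb, Fcgbp, E2f2 and Hspa5 lie below the line, with larger falls in NRG1 mice. Of these, Cck alone was called for a difference between treatments, apart from calls of the others in some of the alternative settings.

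That gene was Cck, which encodes the hormone cholecystokinin (chr9:121489824-121495694). It had 5.76, 13.9 and 26.5 CPM in Lgr5med and 33.0, 61.6 and 107 CPM in Lgr5low libraries of NRG1 mice, and 15.0, 59.5 and 54.7 CPM in Lgr5med and 43.7, 111 and 103 CPM in Lgr5low cells in PBS mice. The steps were -2.20 in NRG1 mice (SE 0.122) and -1.08 in PBS mice (SE 0.123), a difference of -1.13 (SE 0.181, adjusted p = 0.0449). In each NRG1 mouse Lgr5med lay below Lgr5low, with log2 differences of -2.50, -2.14 and -2.01. The call was lost without mouse 2 of each treatment (adjusted p = 0.0679), without mouse 3 (0.282), without the mouse block (1.00) and in a model of all 24 libraries (1.00), over a range of 1.65e-08 to 1.00. Chgb, at -1.21, and Fcgbp, at -0.79, came next among the genes named here and did not pass (adjusted p = 0.0708 and 0.0708). Over the 11 settings run their difference between treatments was called in 4 for Chgb and 3 for Fcgbp. Goblet markers had a negative difference between treatments for 22 of 24 genes (median -0.32) and enteroendocrine markers for 21 of 27 (median -0.66). Unfolded protein response genes had one for 16 of 21 (median -0.25), and the median over all genes was -0.02. In these lists the test called 1 enteroendocrine gene, Cck, and no goblet or unfolded protein response gene. Genes of a list are not independent, so these counts of signs are a description. Mitochondrially encoded messenger RNAs had a positive difference between treatments for 8 of 8 (median 0.51), and none of them was called.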

How the data were processed

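RNA of sorted crypt cells was amplified from 15 ng with the Nugen Ovation kit and sequenced as single 76 nt reads, per the labels' protocols. Reads were aligned with STAR and counted per gene with featureCounts on GRCm38, per the submitters' processing notes. Tool versions, annotation release and strand setting are not given in the sources used here, so overlapping and antisense genes cannot be told apart. The deposited values are raw counts for 43280 gene symbols. Of these, 39469 matched GENCODE vM21, from which gene coordinates come.

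Lgr5med and Lgr5low libraries were compared within treatment by edgeR 4.0.16 (R 4.3.3) with TMM scaling, a filter of 10 counts in enough libraries and 15 in all, and a quasi-likelihood test with the mouse as a block. Adjusted p-values are Benjamini-Hochberg over all genes tested, and a gene was called under 0.05. The difference between treatments was an interaction over 12 libraries with the mouse as a block. CPM values were scaled by TMM over all 24 libraries. The same mouse gave both libraries, per the labels, and deviations from group means correlated at 0.381, 0.187 and 0.301 within the 3 NRG1 mice. Each population has 1 library per mouse, so p-values rest on 3 mice. In simulated counts of the NRG1 comparison, with 13204 genes, the test found 90 of 100 genes changed 2-fold and 67 of 100 changed 1.5-fold, and called 16 of 13004 unchanged genes. For the interaction, with 14209 genes, it found 68 of 100 genes changed 2-fold and 18 of 100 changed 1.5-fold. In both simulations the changed genes were drawn from genes with higher mean counts than the filter asks for. The rates were not measured for genes of low count.

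Named genes were the 12 largest differences each way over genes that were called, moved alike in all mice and averaged 2 or more on the log2 CPM scale, without predicted genes and pseudogenes, up to 5 called members per list with the highest average, and a set of markers named always. Genes outside this rule are named as such, and some genes are not reported here. The comparison, the 37 gene lists and the markers were chosen with earlier results of these data known. Promoter sequences are those of RefSeq on GRCm38.p6, with 32851 promoters searched. Alternatives were no block, DESeq2 size factors, DESeq2 1.42.0, limma-voom (limma 3.58.1), no filter, no mitochondrial ribosomal RNA, all 24 libraries, and leaving out each mouse.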

Additional observations from a re-analysis of the deposited data

Results flagged for a closer look

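The step of Cck, taken as Lgr5med minus Lgr5low cells, differed between treatments by -1.13 on the log2 scale (SE 0.181, edgeR interaction test, adjusted p = 0.0449). It was -2.20 in NRG1 mice and -1.08 in PBS mice, with Lgr5med below Lgr5low in 6 of 6 mice. The difference was called in 7 of 11 settings.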

How the results depend on the processing

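Without the mouse block, 667 genes were called in NRG1 mice, 178 higher and 489 lower in Lgr5med cells, and 653 of the 667 were among the 2486 called with it. In a model of all 24 libraries 1371 were called, 334 of them higher, and DESeq2 called 503 higher. Leaving out 1 mouse gave 1057 to 2321 calls, 265 to 822 higher and 792 to 1499 lower, the fewest without mouse 1. In PBS mice 1119 genes were called without the block and 1551 to 2179 when a mouse was left out, the fewest without mouse 3. For the difference between treatments, the counts were 0 without the block (388 at an unadjusted p under 0.05), 0 with all 24 libraries (535), 19 with DESeq2, 4 with limma-voom, 45 without the filter on low counts, and 1 to 4 when a mouse of each treatment was left out. With DESeq2 size factors, without the filter or without mitochondrial ribosomal RNA the counts in NRG1 and PBS mice stayed within 1.5 times. No named gene reversed in the settings run. Medians of some gene lists changed sign: without mouse 3, Paneth markers had 0.03 against -0.48 in the fit of all mice, ERK genes -0.11 against 0.07 and ErbB genes 0.01 against -0.18, and tuft markers had -0.03 with all 24 libraries against 0.16. The cause was not tested. Medians of the immune list (3 genes) and the erythroid list (1 gene) also changed sign when a mouse was left out. Calls were followed over 171 results, those of the named genes in NRG1 mice and the difference between treatments of Cck. The calls lost were 88 without the block, 48 with all 24 libraries, 56, 15 and 28 without mouse 1, 2 and 3, and 19 with DESeq2. The 171 include genes not called in the fit of all mice, such as Alpi, which had no call to lose. Leaving out a mouse leaves 2 pairs and 1 residual degree of freedom per gene, shared across genes by the fit. Depth of 6192378 to 12549810 counts outside mitochondrial ribosomal RNA limits genes near 0.113 to 0.239 CPM, and fits of 3 mice miss many changes of 1.5-fold.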
